A study of Homo sapiens with 4 samples.

Results

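CPT1A, CPT2, ACADM, ACADVL, HADHA, HADHB, PDK4 and ANGPTL4 are genes of mitochondrial fatty acid oxidation and known targets of the nuclear receptor PPARA. They were taken by gene symbol from the expression table of HepG2 cells, a human liver cancer line, and are 8 of its 57979 genes. Each symbol stood on 1 line. Polyadenylated RNA was sequenced in 4 libraries to ask how the loss of TXNDC9, a thioredoxin domain protein, alters expression. The 2 libraries labelled wild type (WT) and the 2 labelled TXNDC9-KO came from cells of the same line grown in DMEM with fetal bovine serum. The knockout was made with CRISPR-Cas9 by infection with lentiCRISPRv2 carrying guides to TXNDC9, and the study describes sorting the infected cells, so the knockout is a cell population whose makeup is not given in the sources used here. The control is labelled only as wild type. For a protein blot the study describes control cells given the vector alone. It does not say whether the wild type libraries came from such cells. The labels do not say whether replicates were separate cultures, and where the study speaks of independent experiments it gives another number of them than the libraries used here. P-values therefore measure the spread between these libraries, which may be technical.

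Long-chain fatty acids enter mitochondria as carnitine esters, which CPT1 forms at the outer membrane and CPT2 turns back into acyl-CoA inside. Each turn of β-oxidation then begins with an acyl-CoA dehydrogenase suited to the chain length, and the trifunctional protein built from HADHA and HADHB completes it for long chains. PPARA, paired with RXR, senses fatty acids in liver and raises transcription of this machinery during fasting. PDK4, which shuts pyruvate out of the mitochondrial oxidation route, and the secreted lipase inhibitor ANGPTL4 are among its best known targets.

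TXNDC9 itself read 35.1 and 37.3 FPKM in the WT libraries and 21.9 and 27.6 in the knockout libraries (fragments mapped to a gene, scaled to transcript length and to the size of the library). The knockout values lay below the WT values, but the difference of -0.55 on the log2 scale (SE 0.14, adjusted p = 0.0145) was not called, and it was 0.12 once libraries were rescaled to TPM. RNA level does not show whether the coding sequence was cut. The labelled cell line was checked against 10 hepatocyte markers, and these go against it. ALB, TTR, APOB, SERPINA1, FGB, TF and HNF4A were near 0 in all 4 libraries, APOA1 and FOXA2 were listed at 0 in all of them, and the highest value of any marker was 0.449 FPKM, for AFP. The summed marker level was 0.446 and 0.733 FPKM in WT and 0.0479 and 0.174 in knockout libraries. Of 9 markers of other cell types, 5 exceeded 1 FPKM in each WT library and 4 in each knockout library. COL1A1 was the highest of them in 3 libraries, at 31.5 and 22.8 FPKM in WT and 20.7 and 17.5 in knockout cells, and EPCAM was listed at 0 in all 4 libraries. The part of cell identity in the results below was not tested. FPKM summed to 805816 and 971102 over all genes in WT and to 535973 and 568279 in knockout libraries, and the 100 highest genes held 32.1% and 34.6% against 25.3% and 25.9%. Read depth is unknown because the table holds no counts.

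The stretches before the starts of ANGPTL4 and PDK4 are shown because the knockout values of these PPARA targets lay on opposite sides of WT, and that of HADHA because it lies between the starts of the genes for both chains of an enzyme. Each is the longest run of the 250 bases before the start that lies outside annotated exons. Sequences are from the RefSeq promoter table (GRCh38.p14), 5′ to 3′ in the direction of the gene, with capitals at each GGGCGG or CCAAT on either strand.
ANGPTL4 (chr19:8363905-8364154, plus strand): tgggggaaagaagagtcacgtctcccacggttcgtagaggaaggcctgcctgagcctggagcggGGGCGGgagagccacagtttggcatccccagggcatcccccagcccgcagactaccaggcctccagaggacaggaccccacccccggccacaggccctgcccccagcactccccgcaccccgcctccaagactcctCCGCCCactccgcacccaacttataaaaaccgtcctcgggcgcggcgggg
PDK4 (chr7:95596517-95596669, minus strand): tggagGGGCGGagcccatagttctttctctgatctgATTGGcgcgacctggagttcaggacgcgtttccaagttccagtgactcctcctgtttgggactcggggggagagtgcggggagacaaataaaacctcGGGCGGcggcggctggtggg
HADHA (chr2:26244673-26244747, minus strand): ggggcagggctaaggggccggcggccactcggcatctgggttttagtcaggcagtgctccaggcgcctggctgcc

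The ANGPTL4 stretch was 68.8% G or C and the PDK4 stretch 60.8%, and each held 2 copies of GGGCGG. PDK4 also held CCAAT on the other strand, 117 bases before its start. All 8 genes had a promoter window of 250 bases before to 50 after a start, and in none did either strand hold AGGTCA, the hexamer bound by nuclear receptors. Only exact matches within these windows were sought, so sites elsewhere or with other bases would be missed. AGGTCA was in 13.8% of the 35116 windows of the table. Its direct repeat with 1 base between, the arrangement known for PPARA with RXR, was in 0.0228% of windows and in those of 0 of the 8 genes. CACGTG, in 7.26% of all windows, and TGACGTCA, in 1.85%, were likewise in 0 of the 8. GGGCGG was in 7 of the 8 windows, all but that of CPT1A, against 45.0% of all windows, and CCAAT was in 1 of 8 against 34.6%. The windows of HADHA and HADHB overlap, and the only GGGCGG of HADHA is a site also counted for HADHB. These windows are therefore not independent. A copy of GGGCGG never overlapped CCAAT in the stretches shown. The window of CPT1A lies at another start than that of its canonical GENCODE transcript.

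ACADVL and ANGPTL4 fell in the knockout libraries, so that 2 of 8 genes were called lower. Of all 13246 genes tested, 15.3% were called lower and 14.2% higher, shares that also stand behind the counts called in the lists below. A call needed an adjusted p under 0.01 from limma on log2(FPKM + 0.1) and a fold change of at least 2. By that rule 0 of 8 genes were called higher, while at an unadjusted p under 0.05 limma put 3 of them higher and 3 lower. At that unadjusted threshold 33.0% of all genes tested were higher and 38.3% lower, shares that also stand behind the unadjusted counts of the lists below. CPT1A and ACADM were higher with an adjusted p under 0.01 and a smaller fold. By adjusted p alone, whatever the fold, 23.7% of all genes tested were higher and 27.1% lower. All 8 genes passed the filter of an average FPKM above 1, ANGPTL4 only through its WT libraries, and without the filter 1 gene, ACADVL, was called lower. Their median log2 difference was -0.03, beside -0.09 over all genes tested. The order of the levels was the same in both groups, from ACADVL through HADHA, HADHB, ACADM, CPT1A, CPT2 and PDK4 down to ANGPTL4. Neighbours in that order did not overlap between libraries of a group, except PDK4 and ANGPTL4 in WT cells. Fewer cells of a type and less RNA per cell cannot be told apart in such bulk libraries. With 2 libraries in each group, an exact two-sided permutation test cannot go below p = 0.333 for any single gene.

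**Figure D1:**
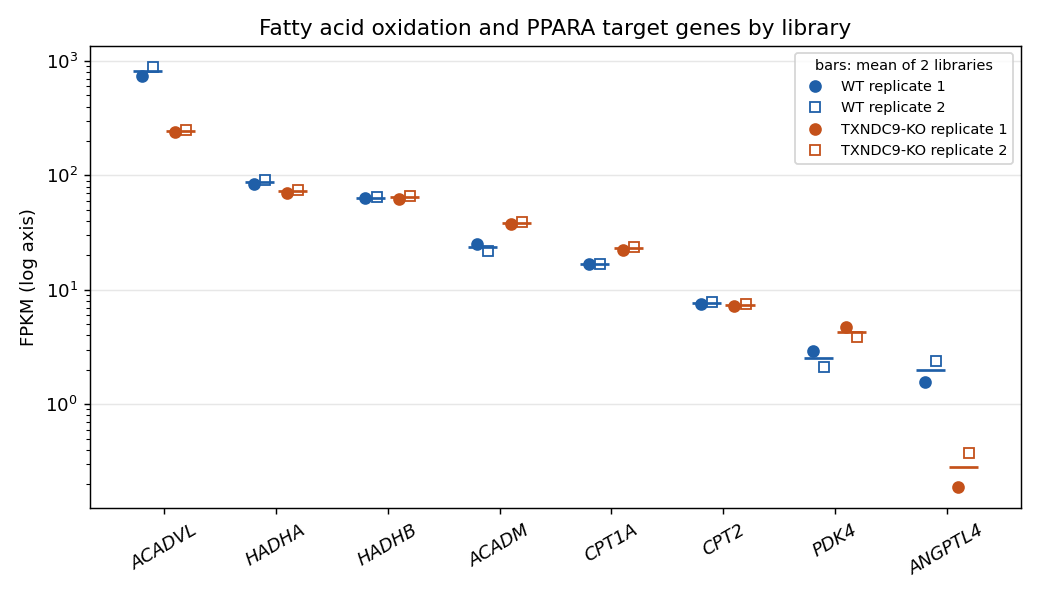
FPKM on a log axis for each of the 8 genes in WT replicates 1 and 2 (blue) and TXNDC9-KO replicates 1 and 2 (orange), with bars at the mean of 2 libraries. The knockout points of ACADVL, ANGPTL4 and HADHA lie below both WT points. Those of ACADM, CPT1A and PDK4 lie above them, and those of HADHB and CPT2 meet or overlap them. The share of all genes tested whose groups do not overlap is not given here.

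ANGPTL4, which blocks lipoprotein lipase and so keeps circulating triglycerides out of tissues, had the largest difference of the 8 genes and the lowest level. It read 1.55 and 2.40 FPKM in the WT libraries and 0.187 and 0.374 in the knockout libraries. Both knockout values lay below both WT values, and the mean fell from 1.97 ± 0.60 to 0.281 ± 0.13 FPKM (SD, n = 2). On the log2 scale with the pseudocount of 0.1 the difference was -2.46 (SE 0.46, 95% interval -3.61 to -1.31, adjusted p = 0.00507), a place at percentile 0.9 of all genes tested. The pseudocount understates the change of so low a gene. With the length and GC correction the difference was -1.54 and the call ended (adjusted p = 0.0276), as it did without the filter on low genes (adjusted p = 0.017). The difference was -1.20 with a pseudocount of 1 and -2.81 with 0.01. ANGPTL4 (ENSG00000167772) lies on chromosome 19 of hg38 from 8363289 to 8374370, and its transcript of 1872 nucleotides is 63.3% G or C.

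The other 7 angiopoietin-like genes stayed at or below 0.404 FPKM in every library and were not tested. Lipoprotein lipase itself, LPL, read 0.0306 and 0.0321 FPKM in WT and 0.483 and 0.269 in knockout cells, below the filter in all 4. Of 15 genes in the list of angiopoietin-like proteins and lipases 4 were tested, of which ANGPTL4 and PNPLA2 were called lower and LIPE higher. PNPLA2, the lipase that starts triglyceride breakdown in lipid droplets, fell from 104 and 125 FPKM to 42.6 and 40.5 (log2 difference -1.45, SE 0.13, adjusted p = 0.000576), and with the length and GC correction its difference was -0.64 and not called (adjusted p = 0.00682). LIPE, the hormone-sensitive lipase that acts after it, rose from 0.435 and 0.487 FPKM to 1.80 and 1.38 (log2 difference 1.58, SE 0.36, adjusted p = 0.00985). The groups did not overlap for either gene, and LIPE entered the test only through its knockout libraries. The call of LIPE ended with the replicate block (adjusted p = 0.0122), without the filter (adjusted p = 0.0215) and with a pseudocount of 1 (log2 difference 0.82). It also ended when libraries were centred on their medians (adjusted p = 0.0133). LIPE was called under TPM (log2 difference 2.25) and with the length and GC correction (1.90, adjusted p = 0.00496).

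ACADVL, the dehydrogenase that opens β-oxidation of very long-chain acyl-CoA at the inner membrane, was the most abundant of the 8 genes and fell the most in absolute terms. It read 738 and 888 FPKM in WT and 240 and 250 in knockout cells, with no overlap. The mean went from 812.7 ± 106 to 245 ± 6.73 FPKM (SD, n = 2), a WT level 3.32 times that of the knockout. The log2 difference was -1.72 (SE 0.15, 95% interval -2.10 to -1.35, adjusted p = 0.000598). In WT cells ACADVL stood at percentile 98.8 of the levels of all genes tested. It was called under both other scalings and with the length and GC correction (log2 difference -1.18, SE 0.12, adjusted p = 0.00246). Without TXNDC9-KO replicate 1 the difference was -1.70 (adjusted p = 0.0273) and without replicate 2 it was -1.75 (adjusted p = 0.0256). For ANGPTL4 the same omissions gave -2.10 (adjusted p = 0.0272) and -2.82 (adjusted p = 0.0232). Neither gene was called in a fit with a lone knockout library, and limma then called 0 of 13246 genes with either left out, although 7129 and 7307 had an unadjusted p under 0.05.

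ACADVL (ENSG00000072778) lies on chromosome 17 from 7217125 to 7225266, on the plus strand, and its bounds overlap DLG4 on the opposite strand without sharing bases of canonical exons. Whether counting used the strand is not given in the sources used here. DLG4, a scaffold protein of synapses, read 2.59 and 3.31 FPKM in WT and 1.98 and 1.64 in knockout cells, at most 0.00824 of the ACADVL level in any library.

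ACADM, the dehydrogenase for medium chains, differed from ACADVL in direction. It read 25.3 and 21.7 FPKM in WT and 37.9 and 39.5 in knockout cells, so that the knockout values lay above both WT values. The log2 difference of 0.72 (SE 0.12, 95% interval 0.43 to 1.01, adjusted p = 0.00294) did not reach the fold needed for a call. Within each library the ratio of ACADVL to ACADM, which does not depend on scaling between libraries, was 29.1 and 41.0 in WT and 6.34 and 6.32 in knockout cells. ACADVL made up 88.6% and 89.7% of the summed FPKM of 7 acyl-CoA dehydrogenase genes in WT and 73.3% and 73.8% in knockout cells. These ratios, and those given below, were chosen after the values were seen and were not tested. They were not corrected for length or GC content. ACADM (ENSG00000117054) lies on chromosome 1 from 75724431 to 75787575. Its transcript, with 35.9% G or C, had the lowest such share of the 8 genes. Its bounds overlap RABGGTB on the same strand without sharing bases of canonical exons. RABGGTB read 143 and 164 FPKM in WT and 101 and 103 in knockout cells.

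CPT1A, the liver form of the enzyme that commits long-chain fatty acids to oxidation, read 16.9 and 16.8 FPKM in WT and 22.2 and 23.8 in knockout cells. The groups did not overlap, and the log2 difference was 0.45 (SE 0.10, 95% interval 0.20 to 0.69, adjusted p = 0.00913). Of its paralogs, the muscle form CPT1B read 6.56 and 8.69 FPKM in WT and 4.85 and 6.56 in knockout cells, with the highest knockout value just below the lowest WT value (log2 difference -0.41, adjusted p = 0.123). The brain form CPT1C stayed at or below 0.677 FPKM in all 4 libraries and was not tested. CPT1A was thus the most abundant of the CPT1 genes in each library.

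CPT2, which releases acyl-CoA inside the mitochondrion, read 7.57 and 7.81 FPKM in WT and 7.21 and 7.57 in knockout cells. The groups met, and the log2 difference of -0.06 had a 95% interval of -0.33 to 0.21 (adjusted p = 0.664). The ratio of CPT1A to CPT2 was 2.23 and 2.15 in WT and 3.08 and 3.14 in knockout libraries. CPT2 (ENSG00000157184, chromosome 1 from 53196792 to 53214197) shares 99 exon bases with CZIB and 527 with the RNA gene ENSG00000236723, both on the opposite strand, so its value is uncertain where reads were counted without strand. SLC25A20, named after its values were seen, is the carrier that passes acylcarnitines between these enzymes. It read 16.7 and 19.1 FPKM in WT and 8.55 and 9.23 in knockout cells. The log2 difference of -1.0 (SE 0.12, adjusted p = 0.00107) fell just short of the fold for a call with the pseudocount of 0.1. The WT mean was 2.01 times that of the knockout. SLC25A20 was called when libraries were centred on their medians (-1.14), but not under TPM (-0.32) or after the length and GC correction (-0.69). The ratio of CPT1A to SLC25A20 was 1.01 and 0.878 in WT and 2.60 and 2.58 in knockout libraries.

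In the carnitine shuttle list as a whole 0 of 7 tested genes were called in either direction by limma, and at an unadjusted p under 0.05 there were 2 lower and 1 higher. With a pseudocount of 0.01, or with centring, 1 was called lower, and under TPM 1 was called higher. The median log2 difference of the list was -0.06, beside -0.09 over all genes tested.

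HADHA and HADHB, the α and β chains of the mitochondrial trifunctional protein, lie head to head on chromosome 2, from 26190635 to 26244672 and from 26243170 to 26290465, and the short stretch printed above lies between their canonical starts. HADHA carries the hydratase and long-chain dehydrogenase activities and HADHB the thiolase. HADHA read 84.8 and 90.9 FPKM in WT and 70.7 and 74.3 in knockout cells. Its knockout values lay below both WT values, but the log2 difference of -0.28 (SE 0.11, 95% interval -0.54 to -0.01, adjusted p = 0.0595) did not pass. HADHB read 63.4 and 64.8 FPKM in WT and 61.8 and 66.5 in knockout cells. The knockout range enclosed the WT range, and the log2 difference of 0.00 had a 95% interval of -0.25 to 0.25 (adjusted p = 0.997). The ratio of HADHA to HADHB was 1.34 and 1.40 in WT and 1.14 and 1.12 in knockout libraries. HADHA and HADHB overlap in gene bounds but share no bases of canonical exons.

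Of 14 tested genes of the mitochondrial β-oxidation spiral, 2 were called lower, ACADVL and ECHS1, and 0 higher. Over all genes tested the shares were 15.3% and 14.2%. At an unadjusted p under 0.05 limma put 9 lower and 2 higher, beside 38.3% and 33.0% of all genes tested. The median log2 difference was -0.38, beside -0.09 over all genes tested. It was 0.30 under TPM, beside 0.59, and -0.16 after the length and GC correction, beside -0.06. ECHS1, the short-chain enoyl-CoA hydratase, fell from 172 and 225 FPKM to 85.5 and 94.3 (log2 difference -1.13, SE 0.16, adjusted p = 0.00188). With the length and GC correction ECHS1 differed by -0.39 (adjusted p = 0.0401) and the call ended.

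Acyl-CoA dehydrogenases hand their electrons to the flavoprotein of ETFA and ETFB, and ETFDH passes these on to ubiquinone. ETFB fell from 154 and 215 FPKM to 69.0 and 68.8 (log2 difference -1.40, SE 0.17, adjusted p = 0.00125), and ETFDH fell from 22.5 and 30.6 FPKM to 11.3 and 12.0 (log2 difference -1.16, SE 0.16, adjusted p = 0.00182). ETFA, the partner chain of ETFB, read 169 and 197 FPKM in WT and 149 and 153 in knockout cells (log2 difference -0.27, adjusted p = 0.102). The ratio of ETFA to ETFB was 1.10 and 0.917 in WT and 2.15 and 2.23 in knockout libraries. After the length and GC correction ETFDH was still called (log2 difference -1.40, adjusted p = 0.00347), and ETFB was not (log2 difference -0.39, adjusted p = 0.0421). ETFA then stood at -0.25 (adjusted p = 0.102), near ETFB. The ratio of ETFA to ETFB is uncorrected, and the transcripts differ in length (2289 and 872 nucleotides) and GC content (43.8% and 61.1%).

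PDK4 inhibits the pyruvate dehydrogenase complex by phosphorylating it, which spares glucose when fat is burned. It read 2.93 and 2.10 FPKM in WT and 4.77 and 3.84 in knockout cells. The groups did not overlap, but the spread within each was wide, and the log2 difference of 0.76 (SE 0.22, 95% interval 0.22 to 1.31, adjusted p = 0.0240) did not pass. The mean was 2.51 ± 0.59 FPKM in WT and 4.30 ± 0.65 in knockout cells (SD, n = 2). PDK4 (ENSG00000004799) lies on the minus strand of chromosome 7 from 95583499 to 95596516. Its bounds overlap the antisense gene PDK4-AS1 on the opposite strand without sharing bases of canonical exons.

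The other kinases were not called. PDK1 read 4.28 and 4.76 FPKM in WT and 6.32 and 5.63 in knockout cells (log2 difference 0.39, adjusted p = 0.0438). PDK2, the most abundant kinase, read 25.5 and 31.3 FPKM in WT and 25.1 and 21.8 in knockout cells (log2 difference -0.27, adjusted p = 0.138). PDK3 read 7.25 and 7.91 FPKM in WT and 8.04 and 7.33 in knockout cells, with overlapping groups (log2 difference 0.02, adjusted p = 0.892). PDK4 made up 7.33% and 4.55% of the summed FPKM of the 4 kinases in WT and 10.8% and 9.95% in knockout cells, while PDK2 made up 63.8% and 67.9% against 56.8% and 56.5%.

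The phosphatase side, which removes the mark the PDK enzymes set, showed larger differences. PDP1, a catalytic subunit, rose from 2.14 and 1.82 FPKM to 8.07 and 8.51 (log2 difference 2.01, SE 0.15, adjusted p = 0.000528). PDP2, the other catalytic subunit, rose from 2.96 and 3.03 FPKM to 12.9 and 13.02 (log2 difference 2.08, SE 0.11, adjusted p = 0.000487). PDPR, their regulatory subunit, rose from 3.24 and 2.54 FPKM to 11.3 and 12.3 (log2 difference 2.0, SE 0.16, adjusted p = 0.000538). All 3 were still called after the length and GC correction, with log2 differences of 1.43, 1.26 and 1.34. PDHA1, which carries the phosphorylated sites and was the most abundant gene of the list, read 432 and 437 FPKM in WT and 241 and 256 in knockout cells. Its log2 difference of -0.81 (SE 0.12, adjusted p = 0.00244) was below the fold for a call as deposited and was -1.05 and called after the correction (adjusted p = 0.00224). Of the 12 genes in this list 3 were called higher and 0 lower, beside 14.2% and 15.3% of all genes tested. At an unadjusted p under 0.05 limma put 8 higher and 1 lower, beside 33.0% and 38.3%.

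**Figure D2:**
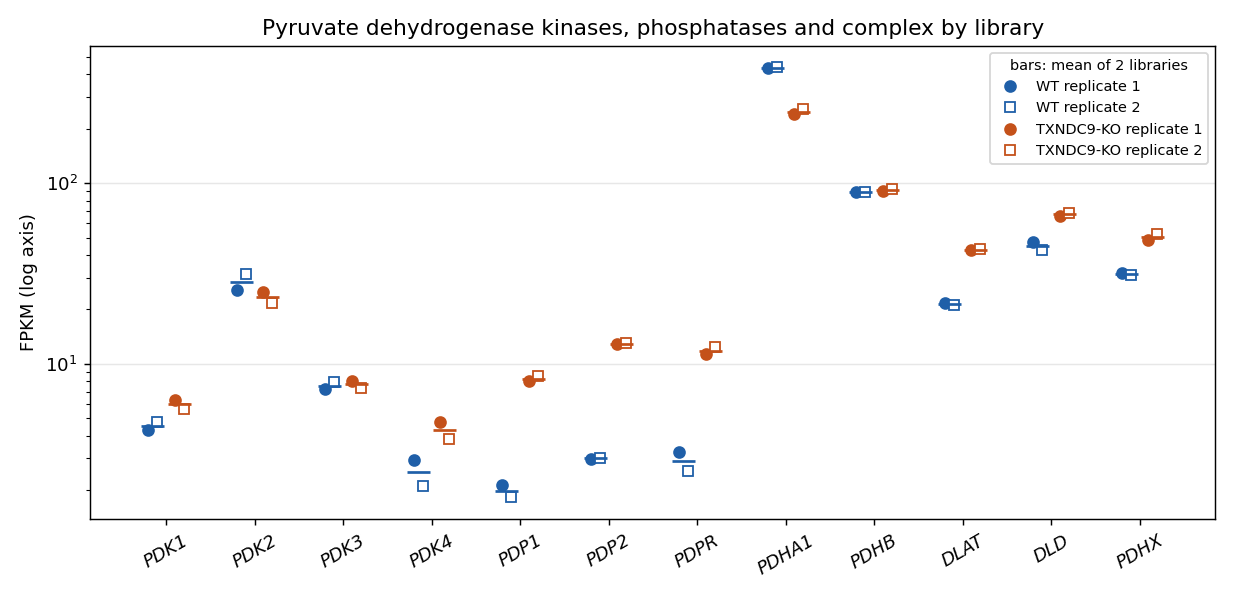
FPKM on a log axis for the pyruvate dehydrogenase kinases (PDK1 to PDK4), phosphatase subunits (PDP1, PDP2, PDPR) and complex subunits in the 2 WT (blue) and 2 TXNDC9-KO libraries (orange), with bars at the mean of 2 libraries. The phosphatase subunits lie between 1.82 and 3.24 FPKM in WT and between 8.07 and 13.02 in knockout cells, whereas the groups of PDK3 overlap.

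The receptor side was described from a list of PPAR and RXR receptors and coactivators. PPARA rose from 2.03 and 2.05 FPKM to 5.38 and 5.51 (log2 difference 1.37, SE 0.14, adjusted p = 0.00081). With the length and GC correction its log2 difference was 0.57 and not called (adjusted p = 0.0157), and its transcript of 10118 nucleotides is long. Its partner RXRA read 7.90 and 7.47 FPKM in WT and 6.85 and 7.61 in knockout cells, with overlapping groups (log2 difference -0.09, adjusted p = 0.527). Of 15 genes tested 8 were called higher and 1 lower, beside 14.2% and 15.3% of all genes tested. The median log2 difference of the list was 1.08, beside -0.09 over all genes tested.

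The largest differences of that list were in the coactivators, which bridge receptors to histone acetylation. NCOA2 rose from 0.873 and 1.03 FPKM to 4.92 and 5.56 (log2 difference 2.35, SE 0.20, adjusted p = 0.000562), with a mean above the filter only through its knockout libraries. EP300, an acetyltransferase, rose from 2.87 and 2.12 FPKM to 10.9 and 12.4 (log2 difference 2.19, SE 0.18, adjusted p = 0.00055), and NCOA3 rose from 5.62 and 4.78 to 21.3 and 21.8 (log2 difference 2.04, SE 0.12, adjusted p = 0.000493). These 3 were still called after the length and GC correction, at 1.40, 1.54 and 1.09. The count of genes called higher in the list was 4 after the correction, with 1 lower, and the median transcript of its tested genes was 7961 nucleotides long beside 2866.5 over all genes tested.

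Of 25 known PPARA targets 13 were not tested, with no value above 0.512 FPKM in any library. Of the 12 tested, ANGPTL4 was called lower and ACOT1, an acyl-CoA thioesterase, higher. The median log2 difference of the tested targets was 0.41, beside -0.09 over all genes tested. It was 0.03 after the length and GC correction, beside -0.06, and 1.07 under TPM, beside 0.59. ACOT1 rose from 2.61 and 3.12 FPKM to 6.42 and 6.27 (log2 difference 1.13, SE 0.15, adjusted p = 0.00148), but it is nearly identical to ACOT2, so that reads can be split between them and its value is uncertain. PDK4, CPT1A and ACADM lay above WT in both knockout libraries and ANGPTL4 lay below, but only ANGPTL4 of these was called. After the length and GC correction PDK4, CPT1A and ACADM stood at 0.29, 0.12 and 0.53 and ANGPTL4 at -1.54, and none of them was called. ACOT1 was still called higher after it (1.87, adjusted p = 0.00214). ACOT2, at 0.25 and not called as deposited, was then called at 1.02 (adjusted p = 0.00224). Thus 2 tested targets were called higher and 0 lower with the correction, beside 6.41% and 7.39% of all genes.

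Fatty acids are activated and carried to these steps by synthetases and binding proteins. Of these 11 were tested, 1 called lower and 3 higher, beside 15.3% and 14.2% of all genes tested. ACSL4, a synthetase that favours arachidonate, rose from 11.8 and 11.3 FPKM to 32.1 and 33.5 (log2 difference 1.5, SE 0.10, adjusted p = 0.000512). CD36, a fatty acid receptor of the cell surface, rose from 5.68 and 6.77 FPKM to 12.9 and 12.5 (log2 difference 1.02, SE 0.13, adjusted p = 0.00125). DBI, the acyl-CoA binding protein and the most abundant gene of the list, fell from 513 and 580 FPKM to 260 and 254 (log2 difference -1.09, SE 0.13, adjusted p = 0.00124). After the length and GC correction 0 genes of this list were called, with adjusted p of 0.00433, 0.186 and 0.00389 for ACSL4, CD36 and DBI at log2 differences of 0.66, 0.25 and -0.80.

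In peroxisomes, which shorten very long chains before mitochondria take over, 2 of 15 tested genes were called lower and 0 higher. Over all genes tested the shares were 15.3% and 14.2%. At an unadjusted p under 0.05 limma put 7 lower and 4 higher. HSD17B4, the bifunctional enzyme of that pathway and its most abundant gene, fell from 96.4 and 113 FPKM to 49.8 and 50.2 (log2 difference -1.06, SE 0.12, adjusted p = 0.000952) and was still called after the correction (log2 difference -1.15, adjusted p = 0.00224). DECR2, the peroxisomal dienoyl-CoA reductase, fell from 26.6 and 32.0 FPKM to 14.6 and 14.3 (log2 difference -1.01, SE 0.12, adjusted p = 0.0012), and after the correction its difference was -0.04.

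**Figure D3:**
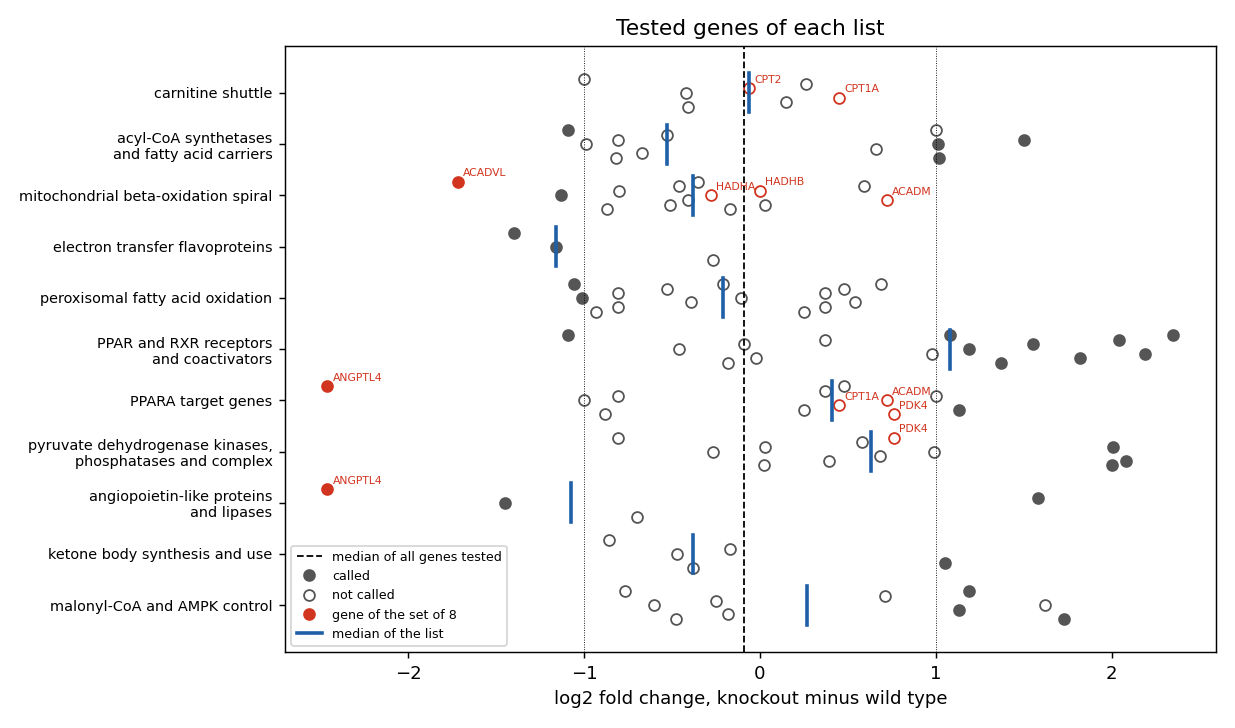
Log2 fold change, knockout minus wild type, of each tested gene in 11 lists, with the set of 8 in red, filled points called, blue bars at each list's median and a dashed line at the median of all genes tested (-0.09). The receptors and coactivators lie mostly to the right with a median of 1.08, and the electron transfer flavoproteins to the left with a median of -1.16.

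The scaling of the libraries changed several of these calls and directions. Rescaled to TPM, so that each library sums to the same total, 447 genes were called lower and 4380 higher instead of 2021 and 1885, and the median of all genes moved from -0.09 to 0.59. On that scale 3 of the 8 genes, CPT1A, ACADM and PDK4, were called higher, with log2 differences of 1.13, 1.40 and 1.43, and HADHA, CPT2 and HADHB turned to 0.40, 0.62 and 0.68. ACADVL and ANGPTL4 were called lower there too, at -1.04 and -1.96. Centred on each library's median, the same genes stood at -1.87 and -2.60.

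Over all lists 99 genes were tested, of which 10 were called lower and 20 higher, beside 15.3% and 14.2% of all genes tested. Under TPM 8 of the 10 were not called, all but ACADVL and ANGPTL4, with log2 differences of -0.78 (PNPLA2) to -0.33 (DECR2), and 38 genes were called higher. Centring ended 7 calls of higher genes, among them CD36 (0.88), ACOT1 (0.98) and LIPE (1.44, adjusted p = 0.0133). The length and GC correction ended 17 of the 30 calls. Without WT replicate 2 the differences of 8 genes no longer reached the fold, which were DBI (-1.0), DECR2 (-0.87), ECHS1 (-0.94), ETFDH (-0.94), HSD17B4 (-0.94), PPRC1 (-0.99), OXCT1 (0.90) and ACBD3 (0.98), and without WT replicate 1 that of CD36 was 0.90. Without TXNDC9-KO replicate 1 or 2 every one of the 30 calls ended, as over all genes.

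**Figure D4:**
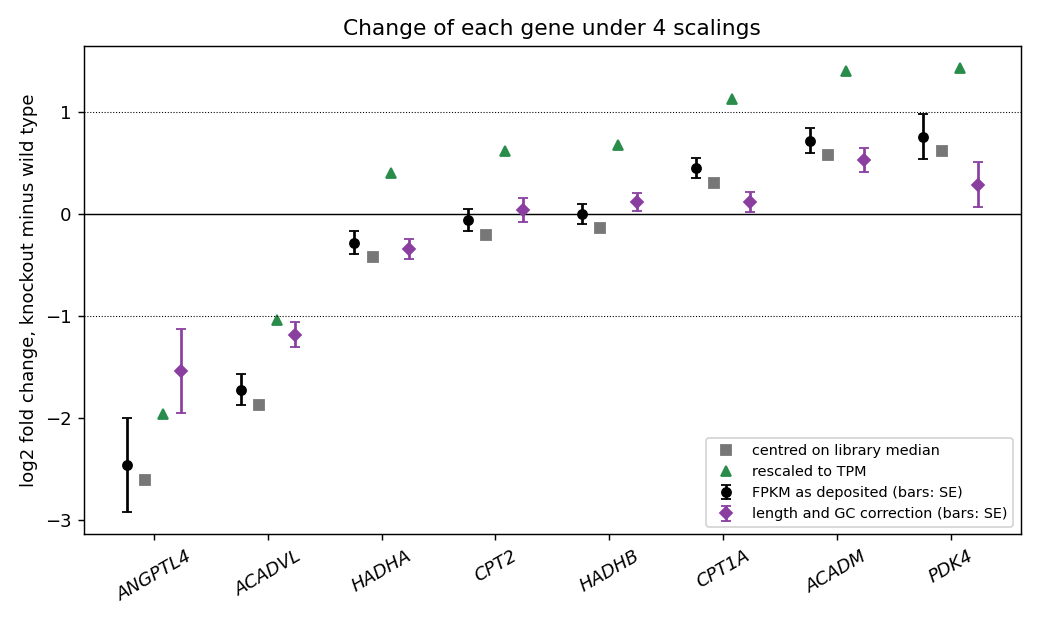
Log2 fold change, knockout minus wild type, of each of the 8 genes for FPKM as deposited (black, bars SE), centred values (grey), TPM (green) and values corrected for length and GC content (purple, bars SE), with dotted lines at 2-fold. ANGPTL4 and ACADVL lie below 0 under all 4, and HADHA, CPT2 and HADHB change sign with the scaling.

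Differences followed transcript length across the table. Over 13112 genes with a length, Spearman's rho between log2 difference and transcript length was 0.495, and with GC content -0.462. These are descriptions across genes, which are not independent replicates and share the 4 libraries. Over the 99 tested genes of all lists the same values were 0.646 and -0.505, and after the correction 0.29 and -0.116. Of 24 such genes under 2000 nucleotides 5 were called lower and 1 higher, and of 29 of 4000 nucleotides or more 1 was called lower and 16 higher. Among the 8 genes, CPT1A had the longest transcript (5238 nucleotides) and ANGPTL4 the shortest. ACADVL (2184 nucleotides, 57.8% G or C) and ACADM (2261 nucleotides, 35.9%) are close in length and lay on opposite sides of 0 before and after the correction, at -1.72 and 0.72 as deposited and -1.18 and 0.53 corrected (adjusted p = 0.0171 for ACADM).

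**Figure D5:**
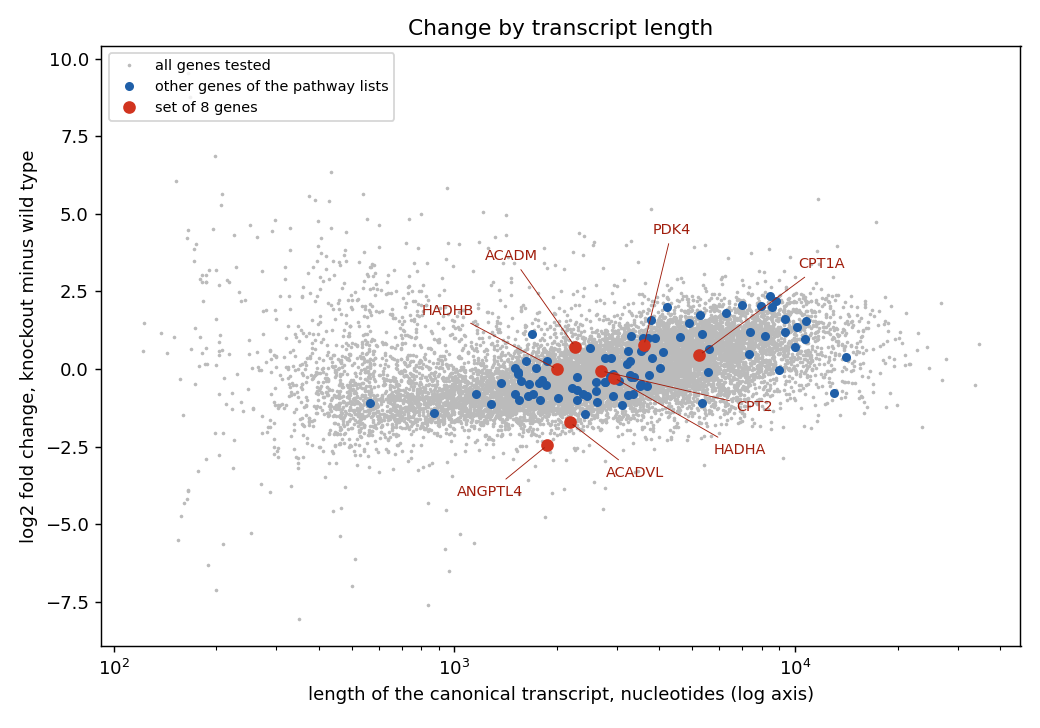
Log2 fold change, knockout minus wild type, against the length of the canonical transcript (log axis) for all genes tested (grey), other genes of the lists (blue) and the set of 8 (red, named). Longer transcripts lie higher (Spearman's rho 0.495), and ACADVL and ANGPTL4 lie at -1.72 and -2.46, below the other genes of the lists.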

How the data were processed

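The authors mapped reads to hg38 with TopHat2 on an Ensembl annotation and deposited FPKM per gene and library from Cuffdiff. Versions, library normalization and strand are not given in the sources used here. The deposited averages, fold changes and p- and q-values of the authors' own comparison were not used. Of 231916 lines 57979 held values, and their identifiers, out of register with the symbols, were put back in order. Genes with an average FPKM above 1 (13246) were fitted on log2(FPKM + 0.1) with limma 3.58.1 (R 4.3.3, trend in the prior variance, Benjamini-Hochberg adjustment over these genes), without the replicate block. Calls required at least a 2-fold difference and an adjusted p under 0.01. The 8 genes, the lists and the markers were chosen with earlier results of these data known.

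Named were the 8 genes, of each list up to 3 called genes with the largest difference and the gene with the highest mean over the 4 libraries, PPARA, RXRA, the paralogs of PDK4 and CPT1A, and the 3 genes closest in pattern to ANGPTL4 and to ACADVL. Values of some genes that this rule names are not reported here. The correction fitted a loess curve (span 0.3) of each library's log2 values on transcript length and GC content (GENCODE 44). Other alternatives were pseudocounts of 1 and 0.01, no filter or an average above 5, TPM, centring, no trend, an adjusted p under 0.05 and leaving out each library. Without counts, depth is unknown and no counting intervals are given. On simulated data for this comparison (13112 genes, 200 changed 4-fold) the fit recovered 93% with 0 false calls. With a trend linear in log2 length added there were 2180 false calls, and 8 after the correction. The simulation held no GC effect, and its changed genes were drawn regardless of length. It therefore cannot show whether the correction spares real changes that follow length or GC content. Tables were made with pandas 2.3.3 and scipy 1.17.1 in Python 3.11.15, and plots with matplotlib 3.10.9.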

Additional observations from a re-analysis of the deposited data

How the results depend on the processing

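The 2 libraries in each group are too few to test for an outlying library. ACADVL and ANGPTL4 were both called lower with pseudocounts of 1 and 0.01, TPM, centring, the replicate block, no trend and an adjusted p under 0.05. The count was 1 without a filter, with an average above 5 (which removes PDK4 and ANGPTL4), with the length and GC correction, and with that correction and the replicate block, and 0 to 2 with a library left out, where a lone library is assumed to vary like the other group. The count called higher was 0 except under TPM, where it was 3. CPT2 turned to 0.62 under TPM and to 0.041 with the correction, with or without the block, HADHA to 0.40 under TPM, HADHB to -0.14 when centred and to between -0.052 and 0.053 with a library left out, and TXNDC9 to 0.12 under TPM. The cause was not tested. Same-numbered libraries did not deviate together (correlation -0.0904), so the numbers were not taken as pairs. The block moved the calls over all genes to 2146 lower and 1960 higher, left the 2 genes called lower as they were and ended the call of LIPE, 1 of 30 calls in the lists. Calls over all genes were 969 lower and 840 higher with the correction, 976 and 768 with correction and block, and 0 without either knockout library. Of 330 counts in the lists over all alternatives, 103 moved by over 1.5 times, 13 of 22 under TPM and 14 of 22 with the correction.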

Other observations

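Ketone bodies are made from the acetyl-CoA of β-oxidation in liver and burned elsewhere. Of 5 tested genes of ketone metabolism OXCT1 was called higher and 0 lower. OXCT1, which activates ketone bodies for use, rose from 57.8 and 46.9 FPKM to 106 and 109 (log2 difference 1.05, SE 0.13, adjusted p = 0.00134), and without WT replicate 2 the difference was 0.90, under the fold for a call. With the length and GC correction its difference was 0.73 and not called (adjusted p = 0.00582). At an unadjusted p under 0.05 limma put 3 genes of the list lower and 1 higher, beside 38.3% and 33.0% of all genes tested.

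Malonyl-CoA blocks CPT1, and AMPK lowers malonyl-CoA. Of 10 tested genes of this control 3 were called higher and 0 lower (at an unadjusted p under 0.05, 5 higher and 3 lower, beside 33.0% and 38.3% of all genes), all of them AMPK subunits. PRKAA1, a catalytic subunit, rose from 20.5 and 19.98 FPKM to 68.6 and 66.7 (log2 difference 1.73, SE 0.10, adjusted p = 0.000487). PRKAA2, the other catalytic subunit, rose from 2.51 and 2.62 FPKM to 5.94 and 6.02 (log2 difference 1.19), and PRKAB2, a scaffold subunit, from 3.88 and 4.17 to 8.83 and 9.07 (log2 difference 1.13). After the correction these differences were 0.87, -0.06 and 0.39, and 0 of the 3 were called. PRKAG1, the most abundant subunit in WT cells, read 81.5 and 89.4 FPKM in WT and 60.3 and 62.2 in knockout cells (log2 difference -0.48, adjusted p = 0.00944).

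The genes whose centred values over the 4 libraries lay closest to those of ACADVL were ZYX (Euclidean distance 0.0353 on the log2 scale), C19orf43 (0.0356) and ADRM1 (0.0443). Closest to ANGPTL4 were HIST2H2AC (0.0447), SAPCD1-AS1 (0.122) and SELM (0.189). With 4 libraries such likeness mostly restates the size of the difference, which was -1.72 for ZYX and -2.45 for HIST2H2AC.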
